A study of Mus musculus with 9 samples.

Results

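The 10 genes Phgdh, Psat1, Psph, Shmt1, Shmt2, Mthfd1, Mthfd1l, Mthfd2, Aldh18a1 and Pycr1 encode enzymes that make serine, carry its carbon on folate and make proline. They were picked by gene symbol from the RNA-Seq table of murine Tc17 cells, and all 10 were found among its 41388 genes. All 10 also reached a mean of 10 normalized counts over the 9 libraries, the minimum that left 11599 genes for testing. Tc17 cells are CD8+ T cells that were cultured toward IL-17 production. Naive CD62L+CD44-CD8+ T cells were sorted from lymph node and spleen of C57BL/6 mice aged 8 to 12 weeks. All groups were primed for 48 h on plate-bound anti-CD3 (5 µg/ml) with soluble anti-CD28 (0.5 µg/ml), IL-2 (50 U/ml), TGF-β (0.5 ng/ml), IL-6 (30 ng/ml) and anti-IFN-γ (5 µg/ml). All groups contained 0.2% DMSO, the solvent. The Ctrl group received nothing else, the DMF group received 20 µM dimethyl fumarate, and the DMF + GSH group received 20 µM DMF together with 50 µM glutathione. DMF is an electrophilic ester that reacts with thiols, and glutathione (GSH) is the main thiol antioxidant of cells. Each group had 3 libraries, with replicate 1 in preparation batch 1 and replicates 2 and 3 in batch 2. The labels do not say which mice or cultures the replicates came from, while the study describes replication in its experiments in general as biological and independent. The p-values measure the spread between these samples. Unless stated otherwise they come from a model with batch, which does not pair libraries by replicate number. The cells were a culture primed once in vitro, and these libraries measure RNA and not protein, enzyme activity or metabolites.

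Serine is made from a glycolytic intermediate in a chain that runs from Phgdh, the entry enzyme, over the aminotransferase Psat1 to the phosphatase Psph. Serine hydroxymethyltransferase then passes a carbon from serine to tetrahydrofolate, in the cytosol as Shmt1 and in the mitochondria as Shmt2. In the mitochondria Mthfd2 oxidizes the folate-bound carbon and Mthfd1l releases it as formate, and in the cytosol the trifunctional Mthfd1 takes up formate for purine and thymidylate synthesis. Aldh18a1 turns glutamate into the precursor of proline, and Pycr1 carries out the last reduction in the mitochondria. Dividing T cells are known to raise these pathways upon activation, and the transcription factors ATF4 and MYC are known activators of their genes.

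With DMF, 9 of the 10 genes had significantly higher levels than in Ctrl and 0 had lower levels. Across all 11599 genes tested, 14.6% were called higher and 13.3% lower, where called means an adjusted p under 0.05 in limma. The median difference of the 10 genes was 0.59 on the log2 scale, compared to 0.01 for all genes tested. Mthfd1l did not pass the test. When GSH was added to DMF, 8 of the 10 genes had significantly lower levels than with DMF alone and 0 had higher levels, while 12.4% of all genes tested were called lower and 9.99% higher. The median difference of the 10 genes was -0.58. For DMF + GSH compared to Ctrl, 0 of the 10 enzymes were called, and 0 (0%) of all 11599 genes tested. The first 2 comparisons share the DMF libraries, and their values are set side by side only. In cultures measured in bulk, a change in the share of cells of a kind and a change in RNA per cell cannot be told apart. All differences are of log2(normalized count + 1), which understates the change of low genes.

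Both counts of calls changed when single libraries were left out of the model with batch. The 9 calls with DMF fell to 0 without DMF replicate 1 and to 2 without Ctrl replicate 1, Ctrl replicate 2 or DMF replicate 3, when the genes called higher over the whole table also fell from 1698 to 42, 330, 609 and 465. The 8 calls with GSH fell to 0 without DMF replicate 1, DMF replicate 3 or DMF + GSH replicate 1, to 1 without DMF + GSH replicate 2 and to 5 without Ctrl replicate 1. In the same fits the genes called lower over the whole table fell from 1433 to 7, 50, 5, 75 and 968. When the replicate number was a block in the model, 7 to 9 genes were called higher with DMF and 7 to 10 lower with GSH whichever library was left out. That block raised the genes called higher with DMF over the whole table from 1698 to 2746 (23.7%), and those called lower with GSH from 1433 to 2506 (21.6%). With the block and all libraries, the adjusted p between DMF and Ctrl ran from 1.82e-08 for Shmt1 to 0.00482 for Psph over the 9 genes called (limma). For Mthfd1l it was 0.246 (limma).

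Promoter sequences are shown for the members that rose with DMF and hold one of 4 motifs searched on both strands. All 10 members matched the RefSeq promoter table for GRCm38.p6, with 11 promoters that run from 250 bases before to 50 bases after an annotated start. The composite element of C/EBP and ATF factors, TGATGNAA, was found in 3.97% of the 32851 promoters in that table and in 1 member, Pycr1. The E-box CACGTG, which MYC can bind, was found in 7.15% of all promoters and in 1 member, Aldh18a1. The core of the antioxidant response element, TGACNNNGC, was found in 12.4% of all promoters and in 2 members, Phgdh and Psph, where the match in Psph lay after an annotated start and is not shown. The CRE motif TGACGTCA was found in 1.79% of all promoters and in 0 members. The sequences run 5′ to 3′ on the minus strand, which is the gene's own, and hold only bases before every annotated start. Capitals mark the motif, which in Phgdh reads as the reverse complement. The regions are chr3:98339991-98340219 for Phgdh, chr11:120643770-120643998 for Pycr1 and chr19:40588464-40588713 for Aldh18a1. A match is a description of these letters and not a measured binding site.
Phgdh: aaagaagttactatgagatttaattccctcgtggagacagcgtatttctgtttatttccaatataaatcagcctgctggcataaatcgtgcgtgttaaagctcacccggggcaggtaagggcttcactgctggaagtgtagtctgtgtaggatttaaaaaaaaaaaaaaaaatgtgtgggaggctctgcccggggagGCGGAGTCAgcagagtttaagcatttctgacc
Pycr1: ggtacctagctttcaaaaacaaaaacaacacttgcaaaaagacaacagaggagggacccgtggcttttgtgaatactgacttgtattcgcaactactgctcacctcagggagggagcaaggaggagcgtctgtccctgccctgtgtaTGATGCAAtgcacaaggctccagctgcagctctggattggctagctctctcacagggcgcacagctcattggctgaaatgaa
Aldh18a1: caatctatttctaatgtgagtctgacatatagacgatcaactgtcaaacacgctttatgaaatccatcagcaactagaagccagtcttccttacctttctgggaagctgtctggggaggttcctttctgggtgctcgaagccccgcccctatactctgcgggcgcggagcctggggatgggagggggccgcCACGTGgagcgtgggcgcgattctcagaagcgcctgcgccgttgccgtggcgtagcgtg

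The 3 genes of serine synthesis all had higher levels with DMF than in Ctrl. Phgdh (ENSMUSG00000053398, chr3:98313170-98339990, minus strand) had normalized counts of 1046, 927 and 1348 in Ctrl replicates 1, 2 and 3, of 1678, 1744 and 1775 with DMF, and of 976, 980 and 1416 with DMF + GSH. Every DMF library was above every library of the other 2 groups, and replicate 3 was the highest in each group. The difference with DMF was 0.66 on the log2 scale (SE 0.154, adjusted p = 0.0141, limma), a 1.58-fold higher level. Psat1 (ENSMUSG00000024640, chr19:15904678-15947337, minus strand) had normalized counts of 2843, 2672 and 3601 in Ctrl, of 3713, 3992 and 4189 with DMF, and of 2725, 2658 and 3549 with DMF + GSH. Here the gap between groups was narrower, since the lowest DMF library was close to the highest Ctrl library. The difference with DMF was 0.39 (SE 0.123, adjusted p = 0.0395, limma). Psph (ENSMUSG00000029446, chr5:129765558-129787449, minus strand) had normalized counts of 608, 563 and 700 in Ctrl, of 735, 836 and 742 with DMF, and of 562, 613 and 686 with DMF + GSH. Its DMF libraries did not overlap with either other group, and its difference of 0.31 (SE 0.0992, adjusted p = 0.0425, limma) was the smallest of those that passed. Of the exonic bases of Psph, 452 overlap the chaperonin gene Cct6a on the opposite strand, and the library kit named in the labels does not keep the strand. Cct6a itself rose by 0.68 (adjusted p = 0.0129, limma) with a mean normalized count of 5182, and its part in the reads assigned to Psph was not tested.

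Both serine hydroxymethyltransferases rose with DMF. Shmt1 (ENSMUSG00000020534, chr11:60788104-60811718, minus strand), the cytosolic enzyme, had normalized counts of 815, 826 and 963 in Ctrl, of 1640, 1413 and 1779 with DMF, and of 812, 781 and 1119 with DMF + GSH. The lowest DMF library was well above the highest library of the other 2 groups, and Shmt1 had the largest difference of the 10 genes by the size of its log2 value. It rose by 0.89 (SE 0.139, adjusted p = 0.00559, limma), a 1.85-fold higher level. With all 9 libraries in the model with batch, it was the 1 member that also met the stricter threshold of the study. That threshold was an adjusted p under 0.01 with a log2 fold change of 0.75 or more in size. Of all genes tested, 1.22% met it as higher. This result changed with single libraries. Shmt1 did not meet the threshold without Ctrl replicate 1 or 2, DMF replicate 1 or 3, or DMF + GSH replicate 1. Nor did it in a fit of only the 6 libraries compared. Without Ctrl replicate 3, Phgdh, Shmt2 and Mthfd1 met it together with Shmt1. Shmt1 shares 184 exonic bases with Smcr8 on the opposite strand, whose difference with DMF was -0.09 (adjusted p = 0.291, limma). Shmt2 (ENSMUSG00000025403, chr10:127517123-127522444, minus strand), the mitochondrial enzyme, had normalized counts of 3218, 3045 and 4438 in Ctrl, of 5325, 5444 and 5631 with DMF, and of 3008, 3180 and 4375 with DMF + GSH. The 3 DMF libraries lay close together, while replicate 3 stood above replicates 1 and 2 in both other groups. Shmt2 rose by 0.64 (SE 0.147, adjusted p = 0.0140, limma).

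**Figure D1:**
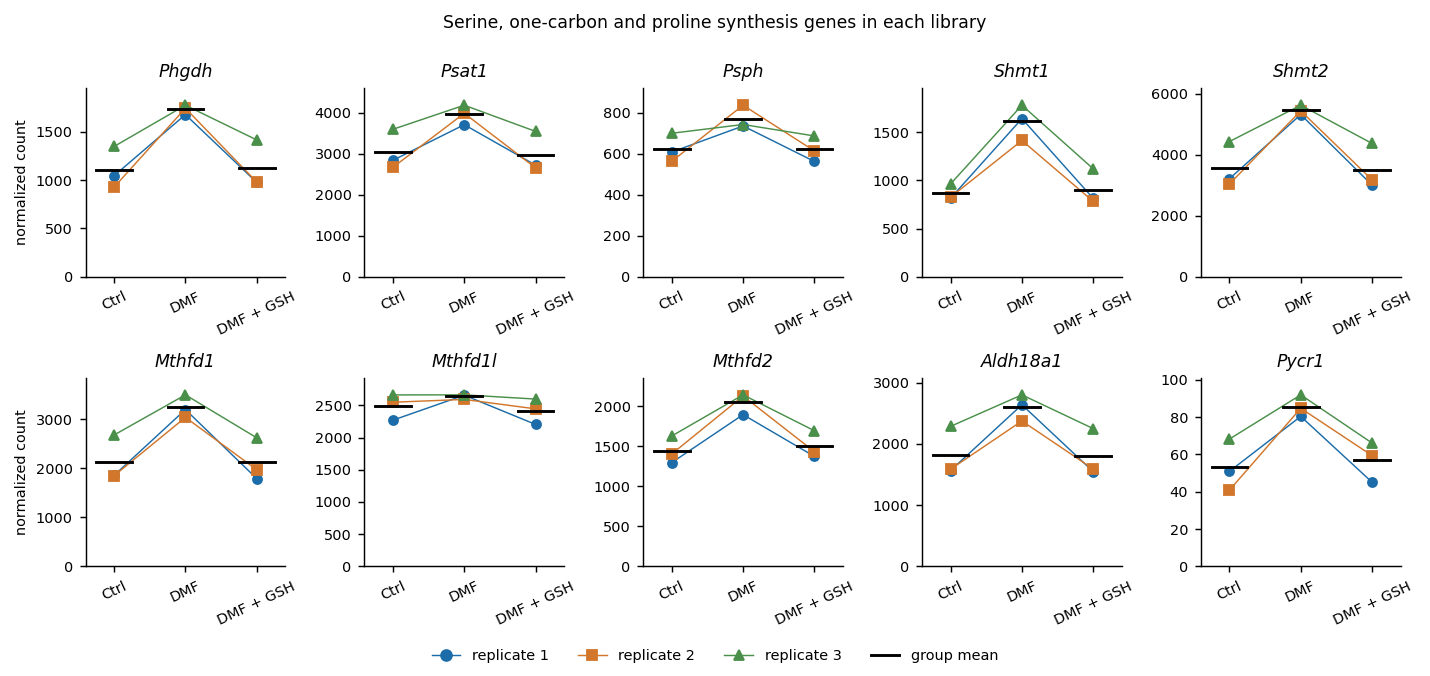
Normalized count (vertical axis, from 0) of each of the 10 genes in the 9 libraries, by group on the horizontal axis. Markers are single libraries joined within a replicate number and black bars are group means; in 9 of the 10 genes every DMF library lies above every Ctrl library, and Mthfd1l is nearly flat.

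Of the 3 genes that handle folate-bound carbon, 2 rose with DMF and 1 did not pass. Mthfd1 (ENSMUSG00000021048, chr12:76255298-76319803, plus strand) had normalized counts of 1855, 1848 and 2678 in Ctrl, of 3196, 3037 and 3496 with DMF, and of 1789, 1970 and 2620 with DMF + GSH. It rose by 0.63 (SE 0.149, adjusted p = 0.0150, limma), and the DMF libraries did not overlap with either other group. Mthfd2 (ENSMUSG00000005667, chr6:83305691-83325908, minus strand) is scarce in many resting adult tissues and is known to rise in dividing cells. It had normalized counts of 1296, 1404 and 1628 in Ctrl, of 1895, 2127 and 2142 with DMF, and of 1373, 1432 and 1694 with DMF + GSH. Its difference of 0.51 was smaller than that of Mthfd1, but its replicates lay closer together (SE 0.0817, adjusted p = 0.00567, limma). Mthfd1l (ENSMUSG00000040675, chr10:3973118-4167081, plus strand) had normalized counts of 2269, 2547 and 2661 in Ctrl, of 2657, 2590 and 2662 with DMF, and of 2203, 2444 and 2596 with DMF + GSH. Here the groups overlapped, and DMF exceeded Ctrl by 0.23 on the log2 scale in replicate 1, by 0.02 in replicate 2 and by less than 0.01 in replicate 3. The difference of Mthfd1l was 0.08 (SE 0.0689, adjusted p = 0.382, limma), with a 95% interval from -0.07 to 0.24, and it was 0.01 without DMF replicate 1 and 0.05 without Ctrl replicate 1. That interval lies below the differences of the other 9 genes, and whether Mthfd1l differs from them was not tested.

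Both genes of proline synthesis rose with DMF. Aldh18a1 (ENSMUSG00000025007, chr19:40550257-40588463, minus strand) had normalized counts of 1565, 1587 and 2285 in Ctrl, of 2638, 2373 and 2799 with DMF, and of 1546, 1589 and 2248 with DMF + GSH. The gap between groups was small, since DMF replicate 2 was just above Ctrl replicate 3. The difference was 0.54 (SE 0.160, adjusted p = 0.0323, limma). Pycr1 (ENSMUSG00000025140, chr11:120635712-120643769, minus strand) was by far the lowest of the 10 genes, with normalized counts of 50.9, 40.9 and 68.3 in Ctrl, of 80.4, 84.7 and 91.9 with DMF, and of 45.1, 59.4 and 66.1 with DMF + GSH. At this depth its lowest library rested on 41 reads, while each of the other 9 genes rested on at least 492 reads in every library. Pycr1 rose by 0.70 (SE 0.208, adjusted p = 0.0321, limma), and no DMF library overlapped with Ctrl.

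Every DMF library was above every Ctrl library in 9 of the 10 genes, and above every DMF + GSH library in the same 9 genes, all but Mthfd1l. Over all genes tested, 21.6% had every DMF library above every Ctrl library and 20.5% had every DMF library above every DMF + GSH library.

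With GSH added, the levels were lower than with DMF alone for Shmt1 by 0.85 on the log2 scale (SE 0.139, adjusted p = 0.0107, limma), the largest difference of the 10 genes by size. Shmt2 fell by 0.65 (adjusted p = 0.0160, limma), Phgdh by 0.65 (adjusted p = 0.0191) and Mthfd1 by 0.63 (adjusted p = 0.0191). Aldh18a1 fell by 0.56 (adjusted p = 0.0355), Mthfd2 by 0.46 (adjusted p = 0.0111), Psat1 by 0.42 (adjusted p = 0.0363) and Psph by 0.32 (adjusted p = 0.0465, limma). Cct6a, which overlaps Psph, fell by 0.60 (adjusted p = 0.0246, limma). The difference of Pycr1 was -0.60 (adjusted p = 0.0629, limma), which did not pass, whereas it passed when the replicate number was a block (adjusted p = 0.0133, limma). The difference of Mthfd1l was -0.13 (95% interval from -0.28 to 0.02, adjusted p = 0.194, limma), and it was -0.059 without DMF replicate 1. With the replicate block and without DMF replicate 3 it was -0.17 and passed (adjusted p = 0.0457, limma), where the adjusted p over all its alternatives ran from 0.0457 to 0.663. Under the stricter threshold of the study 0 of the 10 genes passed in the same model, in which 0.276% of all genes tested met it as lower. Shmt1 alone of the 10 met it in 3 other fits. These were limma with the replicate block (-0.85, adjusted p = 4.90e-08), where 2.41% of all genes met it as lower, edgeR with the block (-0.84, adjusted p = 2.27e-08), where the share was also 2.41%, and DESeq2 (-0.83, adjusted p = 2.84e-06), where it was 1.62%.

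Compared to Ctrl, the DMF + GSH libraries had fitted differences between -0.05 for Mthfd1l and 0.10 for Pycr1. The mean of each of the 10 genes with DMF + GSH was within 1 SD of its mean in Ctrl, as was that of 78.1% of all genes tested. None of the 10 genes passed with limma, edgeR or DESeq2, and 0 had an unadjusted p under 0.05 in limma. Over all genes tested, 0 (0%) passed, where 222 genes had an unadjusted p under 0.05 in limma. By edgeR 0 genes passed and 213 had such a p, and by DESeq2 0 passed and 100 had one, whereas 4 genes (0.0345%), none of them a member, passed in limma with the replicate number as a block. With that block edgeR called 14 genes (0.121%), also without a member. No difference was thus detected, and the 95% intervals ran from -0.36 to 0.57 for Pycr1, from -0.37 to 0.34 for Aldh18a1, from -0.33 to 0.36 for Phgdh and from -0.27 to 0.35 for Shmt1. With the replicate number as a block they were narrower, from -0.28 to 0.49 for Pycr1, from -0.16 to 0.14 for Aldh18a1, from -0.16 to 0.19 for Phgdh and from -0.10 to 0.19 for Shmt1.

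**Figure D2:**
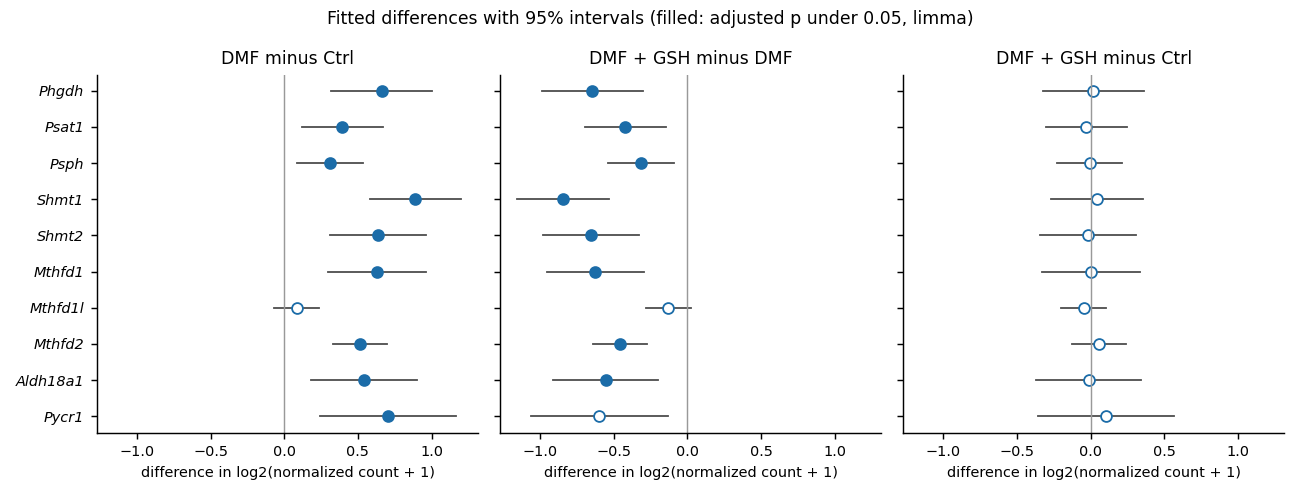
Fitted difference in log2(normalized count + 1) on the horizontal axis for the 10 genes, with 95% intervals, in 3 comparisons (limma, 3 libraries per group). Filled points have an adjusted p under 0.05: 9 genes are higher with DMF than in Ctrl, 8 are lower with DMF + GSH than with DMF, and none is filled between DMF + GSH and Ctrl.

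Within each replicate number, all 10 genes were higher with DMF than in Ctrl, but the size of the difference varied between numbers. For Mthfd1l it was only 0.02 in replicate 2 and less than 0.01 in replicate 3. The share of all genes tested that were higher in every number was not counted. It is at least the 21.6% with every DMF library above every Ctrl library. The median difference of the 10 genes was 0.67 in replicate 1, 0.66 in replicate 2 and 0.36 in replicate 3. It was smallest in replicate 3 for 9 of the 10 genes. Over all genes tested the difference was smallest in size in replicate 3 for 41.9%, and for 49.5% of the 3242 genes called in either direction. For Phgdh the difference was 0.68 in replicate 1, 0.91 in replicate 2 and 0.40 in replicate 3. For Shmt2 it was 0.73, 0.84 and 0.34 in the same order. Shmt1 was the exception, with 1.01, 0.77 and 0.89. Batch 1, which holds 1 library per group, gave 0.78 for Mthfd1 and 0.55 for Mthfd2, and batch 2 gave means of 0.55 and 0.50 over its replicates. Batch 2 gave the larger value for Psat1 (0.38 in batch 1 and 0.40 in batch 2), Psph (0.27 and 0.33) and Pycr1 (0.65 and 0.73). In all the other genes batch 1 gave the larger value.

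**Figure D3:**
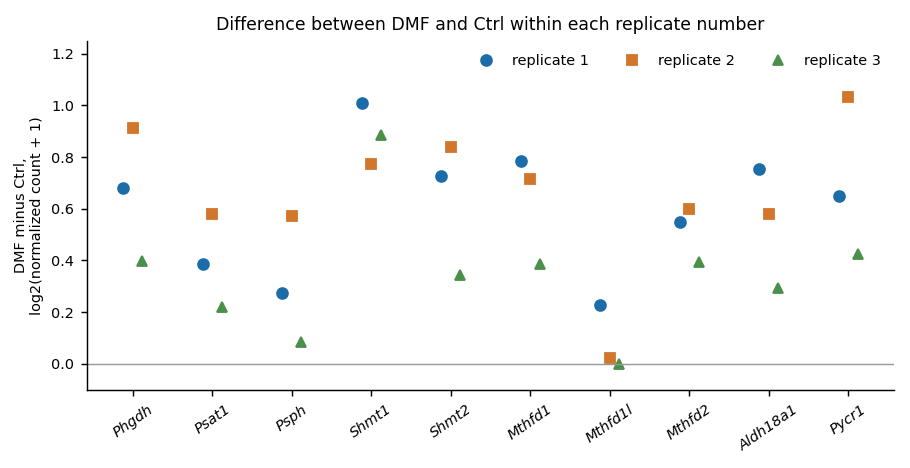
Difference between DMF and Ctrl in log2(normalized count + 1) on the vertical axis within each replicate number, for the 10 genes on the horizontal axis. Each marker compares 1 DMF library with the Ctrl library of the same number; all lie above 0, and the replicate 3 markers are the lowest in 9 of the 10 genes.

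The smaller difference in replicate 3 went with higher levels in replicate 3 of Ctrl and of DMF + GSH. Replicate 3 had the highest count of its group for 10 of the 10 genes in Ctrl, for 9 of 10 with DMF and for 10 of 10 with DMF + GSH. Over all genes tested these shares were 39.9%, 35.8% and 36.8%. The median log2 excess of replicate 3 over the mean of replicates 1 and 2 was 0.42 in Ctrl, 0.11 with DMF and 0.44 with DMF + GSH, compared to 0.01, 0.02 and 0.01 for all genes tested. Ctrl replicate 3 was also the shallowest library, with 7671772 reads against 14511926 in the deepest. The summed level of the myeloid markers was 276 normalized counts in Ctrl replicate 3, compared to 74.8 and 79.0 in the other Ctrl libraries, 55.0 to 72.8 with DMF and 80.7 to 89.8 with DMF + GSH. In DMF + GSH replicate 3 that sum was 80.7. The summed level of the 10 genes was 20369 in Ctrl replicate 3 and 20370.2 in DMF + GSH replicate 3. Of the 7 myeloid markers listed, 6 matched the table, none of them was at 0 in every library, and Lyz2 and Cd68 passed the minimum. The summed level of the CD8 T cell markers was the lowest of its group in replicate 3, with 43128 in Ctrl, 41545 with DMF and 42366 with DMF + GSH, against 44569 to 51764 in the other libraries. The part of these in the results was not tested. Without replicate 3 in any group, a check chosen after seeing the data, 9 genes were called higher with DMF and 9 lower with GSH, and over all genes tested 2169 were called higher and 1980 lower. Each batch then held 1 replicate number, so that the batch term also acted as a replicate block.

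The cells carried the markers of their label. All 9 CD8 T cell markers, among them Cd8a, Cd8b1 and Cd3e, passed the minimum, and so did all 5 type 17 genes, among them Il17a and Il17f. The type 17 genes were all lower with DMF and all higher again with GSH, and their sum was 4236 to 6049 in Ctrl, 1226 to 2723 with DMF and 3965 to 6491 with DMF + GSH. Cd4 reached at most 4.40 normalized counts in any library. The summed NK cell markers reached at most 4.16, the summed erythroid markers at most 4.64 with 3 of their 4 genes at 0 in every library, and the 5 B cell markers summed to 58.1 to 92.9. Of the 9 CD8 T cell markers, 1 was called higher and 2 lower with DMF, and 2 higher and 5 lower with the replicate block. Over all genes tested, 14.6% were called higher and 13.3% lower, or 23.7% and 21.4% with the block. The marker called higher was Cd8a, with a difference of 0.31 (adjusted p = 0.0378, limma). Cd247, with 0.23, was called higher with the block only (adjusted p = 0.109, limma, and 0.0107 with the block). The largest differences by size were those of Cd3g, with a difference of -0.53 (adjusted p = 0.0569, limma, and 9.04e-07 with the block), Cd28, with -0.50 (adjusted p = 0.0311, limma), and Cd3d, with -0.34 (adjusted p = 0.151, limma, and 0.000448 with the block). These 3 were picked after their values were seen.

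Levels can be compared between genes only per length, here as normalized counts per kilobase of annotated exons. In Ctrl, Shmt2 had the highest level with 1147 ± 244 (SD, n = 3), followed by Psat1 with 714 ± 116 and Mthfd1l with 562 ± 45.5. Mthfd1 (479 ± 107), Phgdh (445 ± 87.3), Aldh18a1 (445 ± 101) and Mthfd2 (414 ± 48.6) differed from each other by less than the SD of Mthfd1, and so did Mthfd1l from Mthfd1. Shmt1 (223 ± 21.2) and Psph (144 ± 16.1) were lower, and Pycr1 (13.6 ± 3.5) was lowest. With DMF the level per kilobase was 1758 ± 49.6 for Shmt2, 932 ± 56.1 for Psat1, 730 ± 52.4 for Mthfd1, 697 ± 19.9 for Phgdh, 639 ± 52.8 for Aldh18a1, 594 ± 9.0 for Mthfd1l and 589 ± 39.7 for Mthfd2. Mthfd1l was thus the third in Ctrl and the sixth with DMF, next to Mthfd2 and within its spread. Shmt1 reached 415 ± 47.5, Psph 178 ± 13.0 and Pycr1 21.8 ± 1.5.

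The ratio of a mitochondrial to a cytosolic enzyme was taken within each library, as a description with no test. The log2 ratio of Mthfd1l to Mthfd1 changed with DMF by -0.56, -0.69 and -0.38 in replicates 1, 2 and 3, a mean of -0.54 ± 0.155 (SD, n = 3), and with GSH added to DMF by 0.57, 0.54 and 0.38. Per kilobase, Mthfd1l was at 1.20 ± 0.194 times Mthfd1 in Ctrl, at 0.816 ± 0.0479 with DMF and at 1.16 ± 0.142 with DMF + GSH. The DMF libraries did not overlap with either other group in this ratio. The log2 ratio of Shmt2 to Shmt1 changed with DMF by -0.28, 0.06 and -0.54, with a mean of -0.25 ± 0.304, which is within its spread, and the mean was -0.16 without Ctrl replicate 3. With GSH added to DMF it changed by 0.19, 0.08 and 0.30, upward in 3 of 3 replicates, with a mean of 0.19 ± 0.112, which is larger than its spread, and the mean ran from 0.14 to 0.28 with each library left out in turn. The log2 ratio of Mthfd2 to Mthfd1 changed by -0.24, -0.12 and 0.01, with a mean of -0.11 ± 0.124, also within its spread. Leaving out Ctrl replicate 2 or 3 gave a mean of -0.04 or -0.20, and leaving out DMF replicate 1 or 2 gave -0.07 or -0.19. With GSH added to DMF this ratio changed by 0.37, 0.05 and 0.08, with a mean of 0.17 ± 0.178, which is within its spread.

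The 10 genes had like patterns over the 9 libraries, which share groups, batches and replicate numbers. Pearson's r of log2(normalized count + 1) over the 45 pairs had a median of 0.94 and ran from 0.683 to 0.995. The closest pair was Phgdh with Shmt2, and Mthfd1 with Aldh18a1 followed at 0.992. The 9 pairs with Mthfd1l ran from 0.683 to 0.814, and the 36 pairs without it from 0.839 to 0.995. Such a pattern was common in these libraries, since 1237 of the 11589 other genes had an r of at least 0.9 to the mean profile of the members. The 5 other genes most like that profile were Ybx3, which encodes a Y-box nucleic acid binding protein (r = 0.997), the arginine methyltransferase Prmt1 (r = 0.995), the outer mitochondrial membrane channel Vdac2 (r = 0.995), the proteasome ATPase Psmc5 (r = 0.995) and the nuclear pore gene Nup133 (r = 0.995), each over 9 libraries. Mthfd1l, itself in the mean, ranked at 2448 among all genes tested.

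Genes around the 10 enzymes were read from 6 further lists. Beside their counts, 14.6% of all genes tested were called higher with DMF and 13.3% lower. With the replicate block these shares were 23.7% and 21.4%. With GSH added to DMF, 12.4% of all genes were called lower and 9.99% higher. Purine synthesis and thymidylate synthase draw carbon from folate, whereas the ring of other pyrimidines is made without it. Of 17 genes of purine and pyrimidine synthesis, 11 rose with DMF, 0 fell and 6 did not pass (14 rose and 0 fell with the replicate block), with a median of 0.56 compared to 0.01 for all genes tested. Dhodh, which oxidizes dihydroorotate in pyrimidine synthesis, rose by 0.72 (SE 0.137, adjusted p = 0.00778, limma). Gart, a trifunctional purine enzyme that takes formyl groups from folate, rose by 0.72 (adjusted p = 0.00958, limma), from 2391 ± 447 in Ctrl to 3917 ± 478 normalized counts. Cad, the enzyme that starts pyrimidine synthesis, rose by 0.68 (adjusted p = 0.0149, limma). Tyms, thymidylate synthase, the 1 pyrimidine gene of the list that uses folate-borne carbon, had a difference of 0.12 (adjusted p = 0.185, limma). With GSH added to DMF, 11 of the 17 genes fell and 0 rose.

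Of 21 genes of folate pools, folate carriers and the glycine cleavage system, 17 were tested, of which 8 rose with DMF, 1 fell and 8 did not pass, with a median of 0.30. With the replicate block 9 rose and 2 fell. Slc25a32, which carries folate into mitochondria, rose by 0.56 (adjusted p = 0.0169, limma). Slc19a1 had the largest rise that passed, 0.76 (adjusted p = 0.00683, limma), from 1087 ± 178 to 1838 ± 230 normalized counts. The gene that fell was Sfxn3, by 0.71 (adjusted p = 0.0172, limma). The 3 largest differences of the list did not pass. They were -1.02 for the glycine cleavage gene Amt (adjusted p = 0.168, limma, and 0.0413 with the replicate block), 0.93 for the proton-coupled folate carrier Slc46a1 (adjusted p = 0.0539, and 0.0380 with the block) and 0.79 for the mitochondrial formyl-folate dehydrogenase Aldh1l2 (adjusted p = 0.234). All 3 had means below 31 normalized counts in every group.

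Of 15 genes of the methionine cycle, transsulfuration and polyamine synthesis, 13 were tested, and 8 rose with DMF, 0 fell and 5 did not pass, with a median of 0.37 (10 rose and 1 fell with the replicate block). Cth, which makes cysteine from cystathionine, rose by 1.38 (SE 0.266, adjusted p = 0.00811, limma) from 18.7 ± 3.6 to 51.1 ± 15.1 normalized counts. Its level with DMF + GSH was 22.6 ± 2.86. Srm, spermidine synthase, rose by 1.28 (adjusted p = 0.00661, limma), from 1077 ± 312 to 2577 ± 486. Mtap, which salvages methionine, rose by 0.70 (adjusted p = 0.00710, limma), and Mat2a, which makes S-adenosylmethionine, rose by 0.51 (adjusted p = 0.0109, limma).

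Of 18 listed neighbours of proline, glutamate and aspartate metabolism, 14 were tested, and 7 rose with DMF, 0 fell and 7 did not pass, with a median of 0.36 (10 rose and 0 fell with the replicate block). Prodh, which starts proline breakdown, rose by 0.92 (adjusted p = 0.0262, limma) at means of 18.1 ± 1.68 and 35.9 ± 9.69. Oat, ornithine aminotransferase, rose by 0.22 (adjusted p = 0.0322, limma), and Asns, asparagine synthetase, rose by 0.82 (adjusted p = 0.0204, limma). The aminotransferase gene Gpt2 had a difference of 0.68 (adjusted p = 0.0639, limma, and 0.00286 with the replicate block).

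**Figure D4:**
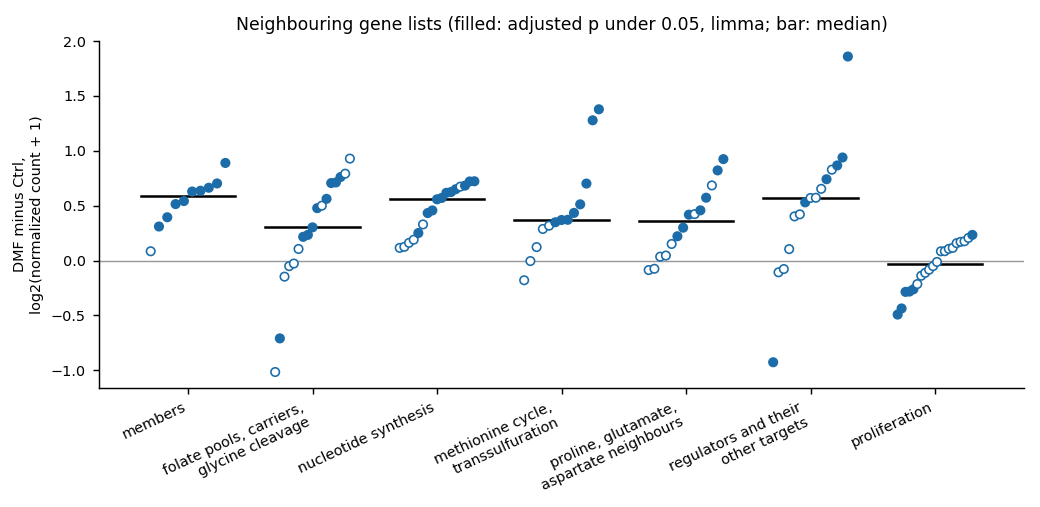
Difference between DMF and Ctrl in log2(normalized count + 1) on the vertical axis for the 10 genes and the 6 further lists. Each point is a tested gene, filled where its adjusted p was under 0.05 (limma), and bars are medians; the medians run from -0.03 for proliferation to 0.59 for the 10 genes.

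Of 16 known regulators of these enzymes and other targets of those regulators, 15 were tested, and 5 rose with DMF, 1 fell and 9 did not pass, with a median of 0.57. With the replicate block 7 rose and 1 fell. Myc rose by 0.87 (SE 0.135, adjusted p = 0.00554, limma), from 2173 ± 193 normalized counts in Ctrl to 3986 ± 625. Its level with DMF + GSH was 2090.5 ± 300.1. Atf4, which is known to be controlled mostly at translation, rose by 0.53 (adjusted p = 0.0157, limma). Atf3, a stress-induced factor of the same family, rose by 1.86 (adjusted p = 0.00794, limma), with a wide spread of 78.4 ± 47.5 normalized counts with DMF against 18.9 ± 4.55 in Ctrl. Sesn2, a stress-induced inhibitor of mTORC1, rose by 0.94 (adjusted p = 0.0120, limma), whereas Ddit4, another inhibitor of mTORC1, fell by 0.93 (adjusted p = 0.0103, limma). Nfe2l2, which encodes NRF2 and is known to be controlled mostly by protein turnover, had a difference of -0.08 (adjusted p = 0.532, limma). Compared to DMF alone, 6 of the 15 genes were lower with GSH and 1 was higher.

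Of 20 proliferation genes tested, 1 rose with DMF, 5 fell and 14 did not pass, with a median of -0.03. With the replicate block 5 rose and 7 fell, where 23.7% of all genes tested were called higher and 21.4% lower. Mki67, a marker of cycling cells, fell by 0.49 (SE 0.0852, adjusted p = 0.00650, limma), from 22310 ± 1088 to 15935 ± 2067 normalized counts. Its level with DMF + GSH was 22400 ± 1981. Top2a, the topoisomerase of dividing cells, fell by 0.44 (adjusted p = 0.00933, limma) and the mitotic kinase Aurkb by 0.29 (adjusted p = 0.0187, limma).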

How the data were processed

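RNA-Seq was done on 9 libraries of murine Tc17 cells, which their titles place in 3 groups of 3. The authors aligned single reads of 50 bases to GRCm38 with STAR (version 2.4.0b in the submitters' processing notes) and counted them per gene. The deposited signal values are these gene counts divided by 1 size factor per library. When divided by the smallest value of its library, 100% of values came out as whole reads (tolerance 0.01), with depths from 7671772 to 14511926 reads. The deposited table also holds the authors' own fold change and p-values of one comparison, which were not used.

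Values were tested as log2(normalized count + 1) with limma-trend (limma 3.58.1, R 4.3.3) for 11599 genes with a mean of at least 10, with group and batch in 1 model of all 9 libraries and Benjamini-Hochberg adjustment over all genes tested. Passed means an adjusted p under 0.05. The stricter threshold of the study was an adjusted p under 0.01 with a log2 fold change of 0.75 or more in size. On the whole reads, edgeR 4.0.16 called 3276 genes and limma 3242 between DMF and Ctrl, and DESeq2 1.42.0 was a further alternative. The fits were also run on simulated counts without batch or replicate effects, which cannot show how they behave with such effects. Deviations from the group means were correlated over genes between libraries that share a replicate number (0.447 to 0.578 in 9 pairs), against at most -0.0621 in 18 pairs with different numbers, so a replicate block was an alternative. Others were the pseudocount (0.5 or 4), the minimum (none or 50), TMM or quantile scaling, no batch term, robust variances, only the 6 libraries compared, and each library left out.

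The 10 members, the 6 gene lists and the marker lists were written from general knowledge and were chosen with earlier results of these data known. Of each list, the text names the 3 tested genes with the largest absolute difference between DMF and Ctrl, and always Atf4, Myc, Nfe2l2, Slc25a32, Tyms, Mat2a, Prodh, Oat, Asns and Mki67, plus the 5 genes most like the members' mean profile. Some genes that this rule names are not reported here. Gene positions and exon lengths are from the GENCODE annotation of GRCm38, and promoters from RefSeq. Strand use in the authors' counting is not given in these sources.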

Additional observations from a re-analysis of the deposited data

How the results depend on the processing

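The direction of the difference between DMF and Ctrl, and between DMF + GSH and DMF, was the same for all 10 genes under every alternative run. The number of genes higher with DMF was 9 in the reported model, and 8 without a batch term, without a minimum or with quantile scaling. It was 7 in a fit of only the 6 libraries compared, and 9 under the other settings of the same threshold. The number lower with GSH was 8, with 7 to 9 under those settings. Under the stricter threshold of the study, the number higher with DMF was 1, Shmt1, in the reported model. It was also 1, Shmt1, by edgeR, by DESeq2 and with the replicate block by limma or edgeR. Shmt1 did not meet it with only the 6 libraries compared. Nor did it without Ctrl replicate 1 or 2, DMF replicate 1 or 3, or DMF + GSH replicate 1. Without Ctrl replicate 3, or without replicate 3 in any group, Phgdh, Shmt2 and Mthfd1 also met it. The number lower with GSH under that threshold was 0 in the reported model. It was 1, Shmt1, with the replicate block by limma or edgeR and by DESeq2. With each library left out in turn, the numbers at an adjusted p under 0.05 ran from 0 to 9 with DMF and from 0 to 9 with GSH. With the replicate block they ran from 7 to 9 and from 7 to 10. The replicate block raised the genes called over the whole table between DMF and Ctrl from 3242 to 5224, and between DMF + GSH and DMF from 2592 to 4814. Among the 10 genes, at an adjusted p under 0.05, it changed the call of Pycr1 between DMF + GSH and DMF and no other call, and under the stricter threshold that of Shmt1 in the same comparison and no other. Between DMF + GSH and Ctrl, where no gene passed, signs near 0 turned for Psph (0.0028 by edgeR with the replicate block) and Mthfd1 (-0.0039 by DESeq2). With each library left out, with or without the block, the signs of these differences turned for 9 of the 10 genes, which ran from -0.15 to 0.16 for Phgdh, -0.15 to 0.084 for Psat1, -0.10 to 0.067 for Psph, -0.12 to 0.17 for Shmt1, -0.17 to 0.13 for Shmt2, -0.13 to 0.16 for Mthfd1, -0.0077 to 0.12 for Mthfd2, -0.17 to 0.15 for Aldh18a1 and -0.12 to 0.27 for Pycr1. The change of the log2 ratio of Mthfd1l to Mthfd1 with GSH added to DMF ran from 0.44 to 0.60. The median r over pairs of members was 0.94 and became 0.948 with replicate means removed. The depth limits Pycr1 most.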
